A study of Homo sapiens with 6 samples.

Results

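The arrays described here compared Jurkat cells given siRNA against RPS3 with Jurkat cells given nonspecific siRNA. They are 3 of the 6 arrays of the series, chosen by the siRNA their labels name. The other 3 arrays carried RNA from cells given siRNA against p65, a subunit of NF-kB whose gene is RELA, and stand beside some values below. Jurkat is an established human T-cell leukaemia line, so all groups share its genotype. Every sample, the control included, was transfected with an siRNA and afterwards received anti-CD3/CD28 (1 ug), antibodies that trigger the T cell receptor and its co-receptor. The RPS3 siRNA and the nonspecific siRNA samples on an array had the same time of stimulation, and there was 1 array each at 1, 3 and 6 h. No unstimulated sample and no array of control against control was analysed here, and the labels name no dye swap. A low value can stem from less RNA per cell or from fewer cells of a kind, which bulk RNA does not tell apart.

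RPS3 encodes a protein of the small ribosomal subunit that sits near the entry channel for mRNA. Outside the ribosome it has been described as a partner of p65 in NF-kB complexes, and as a protein with a part in DNA repair. NF-kB is held in the cytoplasm by IkB proteins, and T cell receptor signals free it to enter the nucleus, where it activates cytokine and survival genes and also genes for its own inhibitors. The comparison asked which transcripts differ between cells with and without the siRNA against RPS3 after such stimulation.

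Each value is a deposited log ratio of the Cy5 (RPS3 siRNA) over the Cy3 (nonspecific siRNA) channel, centred on the array's median and read as log2, so that -1 is a 2-fold lower level with RPS3 siRNA. The direction is likely rather than settled, and it rests on the dyes in the labels and on the RPS3 probe. The log base is not stated, and a natural log would make every change larger. A gene is the mean of its probes that had a value on all 3 arrays, and 7869 features were tested, 4073 genes and 3796 probes without a gene name. Means are given ± SD over the 3 arrays (n = 3), which differ in time, and each mean was tested against 0 with limma. Whether each array had a culture of its own is not in the labels; the p-values reflect array-to-array spread alone, and that may be technical.

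The arrays differed in spread. The 3 h array was the narrowest, with an SD over probes of 0.26, against 0.47 at both 1 and 6 h. It had 10 probes above 1, whereas the 1 h array had 410 and the 6 h array 413. Across features the 1 and 3 h arrays correlated at r = 0.32, the 3 and 6 h arrays at 0.08 and the 1 and 6 h arrays at -0.03; features are not independent replicates. The 3 h array also carries a database ID number of another consecutive series than the 1 and 6 h arrays. Of 11985 probes with a value on all 3 arrays, 183 read below -1 on at least 1 array and 2 on all 3; 556 read above 1 on at least 1 array and 0 on all 3. Time, ID series and any difference between cultures cannot be told apart for a single array.

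The RPS3 transcript had the mean farthest from 0 of all features. It is the lowest in the likely direction, which rests partly on this probe, and would be the highest if the ratios ran the other way. Its probe read -2.50 at 1 h, -2.53 at 3 h and -1.44 at 6 h, a mean of -2.16 ± 0.62 or 4.46-fold lower. All 3 values lay far below 0, and the 6 h value was the nearest to it. On the p65 siRNA arrays the same probe read 0.11, 0.01 and 1.11, so the 6 h array was the highest of both sets. The difference between the siRNAs was almost the same at each time, -2.57 ± 0.03 (SD over 3 times), and passed in limma with the time point as a block (adjusted p = 0.00392). In that comparison 2 of 7189 features passed (0.0278%), RPS3 and an unnamed probe described next. With no time block 0 passed, and without either 1 h array 131 did. Against 0, on the RPS3 siRNA arrays alone, RPS3 did not pass (limma adjusted p = 0.398). When the 1 h array was left out it passed with a mean of -1.99 (adjusted p = 0.0144), and likewise with the 6 h array left out, with a mean of -2.52 (adjusted p = 0.0182); with the 3 h array left out it did not.

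The unnamed probe, 35578_1, read -2.53, -2.10 and -1.50 on the RPS3 siRNA arrays and 0.20, -0.11 and 0.95 on the p65 siRNA arrays. It was the only probe besides that of RPS3 (35554_1) below -1 on all 3 arrays, and its difference between the siRNAs was -2.39 ± 0.37 (limma adjusted p = 0.0226). Among probes whose numbers lie within 30 of the RPS3 probe's, 6 of 48 tested had a mean below -0.5, against 239 of 11985 probes in all (1.99%). The 6 include probes for BSG (-0.97), RGS4 (-0.85), GLYR1 (-0.66) and POLQ (-0.60), the unnamed 35542_1 (-1.25) and 35578_1 itself. Probes for the same genes with distant numbers averaged -0.12 for BSG, 0.38 for RGS4 and 0.03 for GLYR1, but -0.55 and -0.43 for POLQ. Whether probes with adjoining numbers lie side by side on the slide was not tested.

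RELA was read by a pair of probes that disagreed. Probe 15848_1 read -1.28, -0.99 and -0.94 on the RPS3 siRNA arrays and -0.71, -0.99 and -1.05 on the p65 siRNA arrays. Probe 28407_1 read 0.50, -0.40 and -0.14 with RPS3 siRNA, a mean of -0.01. The first probe was low on all 6 arrays, and the second straddled 0. Averaged, RELA stood at -0.54 ± 0.15, against -0.49 with the siRNA designed for it, with a difference between the siRNAs of -0.05 ± 0.15 (limma adjusted p = 0.965).

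In the test against 0, limma called 0 of the 7869 features (0%), the smallest adjusted p being 0.398. Of the 11985 single probes it also called 0 (0%), with 0.308 as the smallest. Before adjustment, 320 features were lower (4.07%) and 268 higher (3.41%) with p under 0.05. These shares, and those of features with a mean below 0 (46.8%) or above 0 (53.2%) and with values below 0 (15.2%) or above 0 (16.2%) on all 3 arrays, are the background for the counts that follow. The genes named below are those with the largest means among genes with 1 sign on all 3 arrays and an unadjusted p under 0.05, and none passed the adjusted test.

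Of the 12 lowest genes, 6 were members of the list of G2 and M phase genes, which was drawn up with earlier results of these data known and holds 49 of the 4073 genes tested (1.2%). BHLHE40, a transcriptional repressor of the basic helix-loop-helix class, read -1.31, -0.35 and -1.24 (mean -0.97 ± 0.54), and its pair of probes gave nearly the same mean. HSPA5, which encodes the endoplasmic reticulum chaperone BiP, read -0.84, -0.90 and -0.72 and had an SD of only 0.09; its p65 siRNA values were 0.16, -0.12 and 0.03. ID1, which blocks DNA binding by helix-loop-helix factors, read -0.64, -0.51 and -1.02 with RPS3 siRNA and 0.19, 0.25 and -0.28 with p65 siRNA. For HSPA5 and ID1 the values of the siRNAs did not overlap. This was not particular to them, as others of the 12 lowest, such as RPS3, KIF14 and CDCA2, had no overlap either. CDCA2 read -0.55, -0.77 and -0.92 with RPS3 siRNA and -0.10, -0.46 and -0.34 with p65 siRNA. The share of all features without such overlap was not computed, and all of these genes were picked for low RPS3 siRNA means. On a looser measure, 16.5% of 7189 features lay below their p65 siRNA value at all 3 times. For HSPA5 and ID1 the difference RPS3 minus p65 was -0.84 ± 0.14 and -0.78 ± 0.05 (SD over 3 times). Both genes missed the threshold in limma (adjusted p = 0.620). SGK1, a kinase gene induced by serum and glucocorticoids, differed from these: it read -0.82, -0.57 and -0.93 with RPS3 siRNA and -0.76, -0.41 and -0.68 with p65 siRNA, and all 4 of its probes were below 0 on every RPS3 siRNA array.

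The 12 highest genes rested on thinner data. Of them 9 were read by 1 probe (5 of the 12 lowest were, HSPA5 and ID1 among them), 7 had a blank on a p65 siRNA array (0 of the 12 lowest did), and 8 had their smallest value on the 3 h array. CCDC191, which codes for a coiled-coil protein, read 2.39, 0.14 and 1.04, so the mean of 1.19 ± 1.13 rests on the 1 h array and is 0.59 without it. SLC71A3P (1.81, 0.22 and 0.35) and GPCPD1 (1.40, 0.22 and 0.63) had the same shape. More even were OGN, for the matrix proteoglycan osteoglycin, at 0.40, 0.98 and 0.85, and H6PD, for a glucose-oxidising enzyme of the endoplasmic reticulum, at 0.79, 0.25 and 1.14. RASGRP1, which couples the T cell receptor to Ras, read 0.43, 0.60 and 0.91 (mean 0.65 ± 0.25) with RPS3 siRNA and -0.01, -0.18 and 0.17 with p65 siRNA. SLA, an adaptor that dampens T cell receptor signalling, read 0.17, 0.49 and 1.29, but its 3 probes averaged from 0.24 to 1.01. The others were TTC17 (0.75), PGGHG (0.68), the transcription factor gene HLF (0.67), the splicing factor gene LUC7L2 (0.61) and the GTPase-activating protein gene ACAP1 (0.57).

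**Figure D1:**
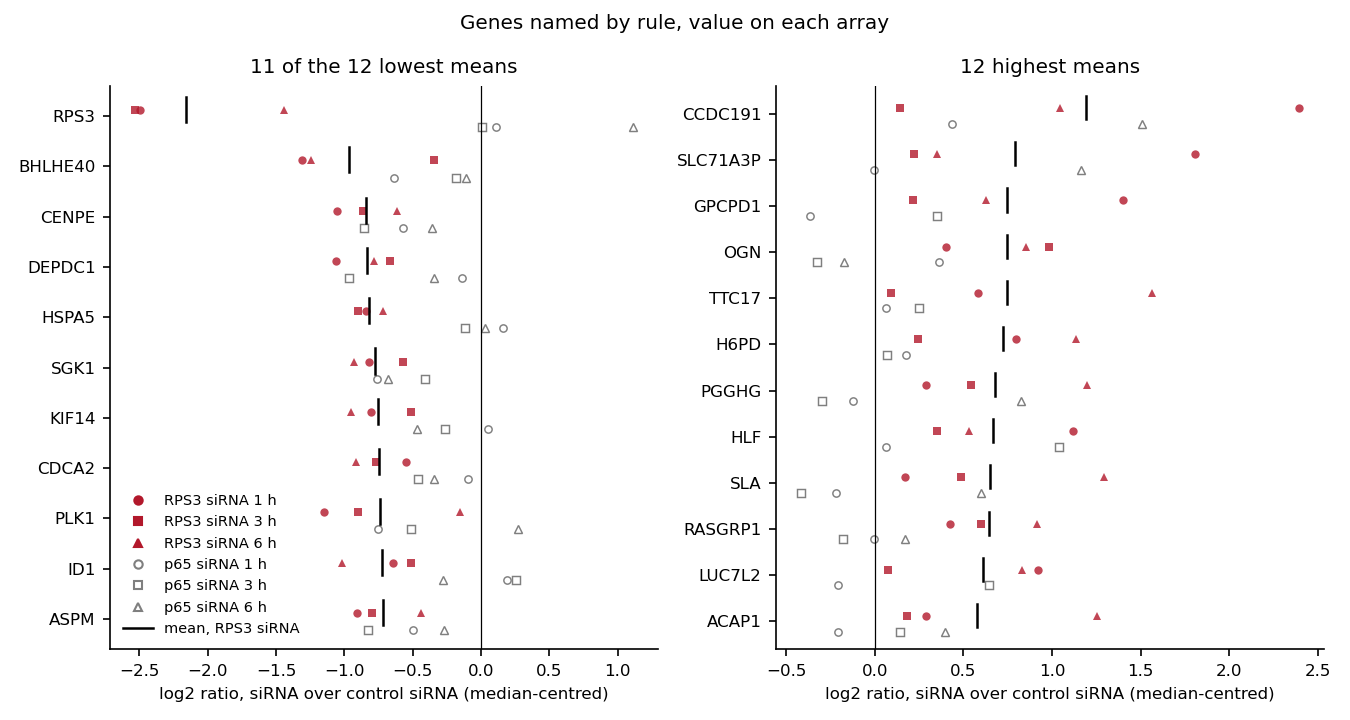
Values of 11 of the 12 lowest and of the 12 highest genes on each array, as median-centred log2 ratios of siRNA over control siRNA; filled symbols are RPS3 siRNA arrays, open symbols p65 siRNA arrays, and bars the mean of the 3 RPS3 siRNA arrays. HSPA5 has tight RPS3 siRNA values away from its p65 siRNA values, whereas CCDC191 runs from 0.14 to 2.39.

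Genes of the G2 and M phases, which build the mitotic spindle, condense chromosomes and drive cells into and out of mitosis, were the list with the lowest median. Of 78 symbols in the list 51 were on the array and 49 were tested. The mean was below 0 for 47 of the 49 (background 46.8%), 31 were below 0 on all 3 arrays (background 15.2%), and 25 had an unadjusted p under 0.05, all of them lower (background 4.07%). The median of the members was -0.43 at 1 h, -0.30 at 3 h and -0.36 at 6 h, and -0.35 for the means, where the median over all features was 0.01. Of the single probes behind these gene means, 121 of 131 averaged below 0, where 5795 of 11985 probes in all did. These are the same measurements, and a gene with several probes counts more than once. The exceptions among genes were SMC2, a condensin subunit (0.51, -0.04 and 0.10), and CDC25A, a phosphatase that activates cyclin-dependent kinases (-0.48, -0.17 and 0.68).

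Many of these genes share short promoter elements: the CHR (cell cycle genes homology region), and the CCAAT box bound by NF-Y. The promoters of DEPDC1, KIF14 and PLK1 are shown because these are the lowest members whose window holds both sets of letters. Each window runs from 250 bases before to 50 bases after the RefSeq start of the gene (300 bases, build GRCh38.p14), and capitals mark TTTGAA, the CHR core, and CCAAT on either strand. The windows lie at chr1:68497033-68497332, minus strand, for DEPDC1, at chr1:200620702-200621001, minus strand, for KIF14, and at chr16:23678639-23678938, plus strand, for PLK1.
DEPDC1: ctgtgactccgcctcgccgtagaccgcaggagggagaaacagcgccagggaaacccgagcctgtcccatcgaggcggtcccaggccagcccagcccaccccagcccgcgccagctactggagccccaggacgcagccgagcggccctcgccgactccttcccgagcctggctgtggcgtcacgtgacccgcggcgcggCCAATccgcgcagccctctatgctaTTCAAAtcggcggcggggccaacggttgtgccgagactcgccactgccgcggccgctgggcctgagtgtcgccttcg
KIF14: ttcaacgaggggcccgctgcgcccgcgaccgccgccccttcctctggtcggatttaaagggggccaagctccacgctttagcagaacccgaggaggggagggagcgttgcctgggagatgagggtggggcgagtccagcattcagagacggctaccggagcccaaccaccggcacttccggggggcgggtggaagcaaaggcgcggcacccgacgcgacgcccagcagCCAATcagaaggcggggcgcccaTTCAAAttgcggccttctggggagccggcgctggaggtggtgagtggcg
PLK1: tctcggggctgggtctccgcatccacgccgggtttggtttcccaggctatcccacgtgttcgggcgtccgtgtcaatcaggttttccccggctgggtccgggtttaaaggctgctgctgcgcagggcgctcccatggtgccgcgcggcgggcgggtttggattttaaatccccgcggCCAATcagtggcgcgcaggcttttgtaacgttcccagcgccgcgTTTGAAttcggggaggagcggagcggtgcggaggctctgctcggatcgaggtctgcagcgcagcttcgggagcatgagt
In the DEPDC1 window the CCAAT box begins at base 199 and the CHR core at base 224; in PLK1 they begin at bases 178 and 222, and in KIF14 at bases 229 and 252. Of the 49 tested members 40 had a window of this kind. TTTGAA was present in 28 of the 40 (70.0%), against 15.6% of 27305 promoters, CCAAT in 31 (77.5%, against 35.6%), and both in 23 (57.5%, against 6.15%). Among the 25 members with an unadjusted p under 0.05, 21 had a window and 14 of these held both (66.7%). CENPE, the lowest member, held neither. These letters describe the windows and are not evidence of binding, and the list was not chosen by them.

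By role, the 7 kinesin motors had a median of -0.60, and 6 of them were below 0 on all 3 arrays. CENPE, which carries chromosomes to the spindle equator, read -1.05, -0.86 and -0.61 (mean -0.84 ± 0.22). KIF14, needed for cytokinesis, read -0.80, -0.51 and -0.95 (-0.76 ± 0.22), KIF20B -0.44, -0.72 and -0.94 (-0.70 ± 0.25), and KIF11, which pushes the spindle poles apart, -0.70, -0.29 and -0.80 (-0.60 ± 0.27). KIF15 was the kinesin that crossed 0, at -0.98, -0.22 and 0.29.

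All 11 kinases averaged below 0, 8 of them on all 3 arrays and 6 with an unadjusted p under 0.05. PLK1, a master kinase of mitosis, read -1.15, -0.90 and -0.16, and CDK1, the kinase that starts mitosis, -0.43, -0.35 and -0.94. The pair differ in time: PLK1 was near 0 at 6 h, when CDK1 was lowest. PBK (-0.37, -0.37 and -0.82) and the checkpoint kinase BUB1 (-0.34, -0.24 and -0.63) had the shape of CDK1. AURKA, at -0.68, -0.56 and 0.57, had that of PLK1.

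Of the 5 cyclins and CDK subunits, CCNB1, the cyclin B1 partner of CDK1, was the lowest at -0.51, -0.53 and -1.07 (mean -0.70 ± 0.32); CCNA2 (cyclin A2) read -0.30, -0.27 and -0.39, and CCNB2 -0.64, -0.32 and 0.02. Of 7 centromere, kinetochore and checkpoint proteins 5 were below 0 on every array, among them CENPF (-0.77, -0.65 and -0.36) and CENPA, the centromeric histone (-0.52, -0.30 and -0.69). The 6 spindle and midzone proteins had a median of -0.61 at 1 h, -0.41 at 3 h and -0.13 at 6 h. ASPM, a spindle pole protein, read -0.91, -0.80 and -0.44 (-0.71 ± 0.24), whereas BIRC5, or survivin, went from -1.09 to 0.26. UBE2C, which loads ubiquitin for the anaphase-promoting complex, was even at -0.51, -0.47 and -0.51, while its partner enzyme gene UBE2S read -0.37, -0.30 and 0.63. The 3 CDC25 phosphatases lay near 0, from -0.11 to 0.01.

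Of the members, 23 were lowest at 1 h, 4 at 3 h and 22 at 6 h; over all features the shares lowest at these times were 36.5%, 24.8% and 38.7%. Below 0 were 46 members at 1 h, 48 at 3 h and 33 at 6 h. With 1 array per time there is no replicate check of such an order. The count of members with an unadjusted p under 0.05 was 19 when the 1 h array was left out, 16 for the 3 h array and 31 for the 6 h array, where 2.88%, 1.78% and 7.09% of all features were lower by that measure. Without the 3 h array, and so within 1 ID series, 46 of the 49 members stayed below 0 with a median of -0.35.

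**Figure D2:**
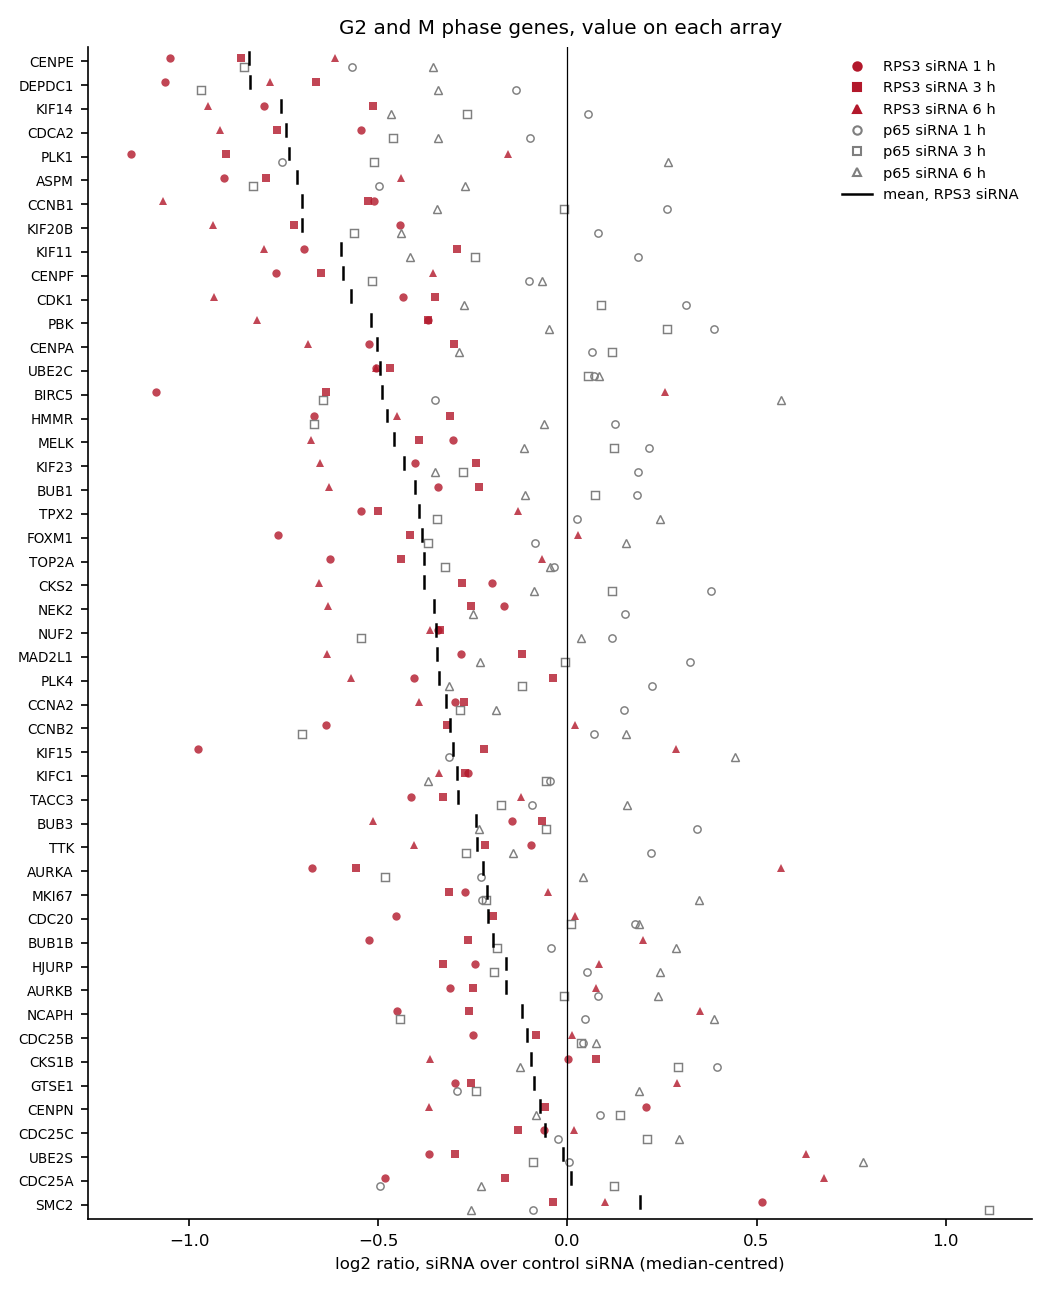
Log2 ratios of the 49 tested G2 and M phase genes on each array, ordered by the mean of the RPS3 siRNA arrays (bars). Filled RPS3 siRNA symbols lie left of 0 for most genes, and triangles (6 h) are the ones that cross it in the lower part of the plot; open symbols show the p65 siRNA arrays.

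Several of these genes have many probes, which show how far the platform repeats itself. All 12 ASPM probes averaged below 0, from -1.12 to -0.16, and 9 were below 0 on all 3 arrays. Their shapes over time differed. Probe 30334_1 read -0.88, -1.02 and -1.12, and probe 30665_1 -1.03, -1.31 and 0.53. Of 6 CENPE probes 5 were below 0 on all 3 arrays; the sixth, 29870_1, read -1.86, -1.93 and 0.58 and on the p65 siRNA arrays -2.60, -1.70 and -0.07. Probes of 1 gene can therefore differ by more than 1 log2 unit on 1 array, and a gene mean hides this.

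On the p65 siRNA arrays the medians of the G2 and M list were 0.05, -0.19 and -0.08. Of the 47 members with values on all 6 arrays, 45 had a lower mean with RPS3 siRNA than with p65 siRNA (background 50.8%), and 30 were lower at all 3 times (background 16.5%). CCNB1 differed by -0.67 ± 0.14, CDK1 by -0.62 ± 0.16 and UBE2C by -0.56 ± 0.03 (SD over 3 times), but no member passed on its own in limma (adjusted p = 0.719 for each of these 3). CENPE and ASPM were also low on the p65 siRNA arrays, at -0.57, -0.86 and -0.36 and at -0.50, -0.83 and -0.27. Lower means than with p65 siRNA were not particular to the G2 and M list. Small ribosomal subunit genes had 11 of 13 (10 at all 3 times) and large subunit genes 10 of 11 (7). Glycolysis and hypoxia had 27 of 32 (17) and oxidative phosphorylation 15 of 18 (10). Other lists went the other way, such as ribosome assembly with 4 of 22 and the T cell receptor list with 12 of 41. The labels do not say whether an RPS3 and a p65 siRNA array of the same time shared control RNA. At 1 and at 3 h the arrays so compared carry ID numbers of different series, and at 6 h of the same series.

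Genes of the S phase and of DNA replication lay closer to 0, with 24 of 36 means below it and a median of -0.09. Their medians by time were -0.17, -0.14 and 0.05. Those with an unadjusted p under 0.05 were FEN1, a flap endonuclease (-0.69, -0.55 and -0.13), and RRM1, a subunit of ribonucleotide reductase (-0.30, -0.24 and -0.62). This count of 2 turned to 8 with the 6 h array left out, where 7.09% of all features were lower by that measure. It turned to 1 and 0 with the 1 h or the 3 h one left out instead (all features 2.88% and 1.78%).

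The NF-kB and IkB family was tested with 12 genes: 9 means were below 0, and 4 had an unadjusted p under 0.05. Among the subunits, apart from RELA, REL read -0.44, -0.01 and 0.37, NFKB1 -0.37, -0.35 and 0.04, NFKB2 -0.51, -0.24 and 0.27, and RELB -0.04, -0.07 and 0.25. All of these were higher at 6 h than at 1 h, on the p65 siRNA arrays too, and their means ran from -0.23 to 0.05. No gene of the family passed the adjusted test. Among the inhibitor genes TNFAIP3 and NFKBIA had lower means, and NFKBIE did not. TNFAIP3, which encodes the ubiquitin-editing inhibitor A20, read -0.99, -0.54 and -0.38 (mean -0.64 ± 0.32), and its 6 probes averaged between -0.71 and -0.59, although 1 of them was above 0 at 6 h. NFKBIA, which encodes IkB-alpha, read -0.91, -0.51 and -0.37 (-0.60 ± 0.28), with 5 probe means between -0.66 and -0.47. BCL3, an IkB-like co-activator, read -0.61, -0.15 and -0.55, while NFKBIE, for IkB-epsilon, read -0.15, 0.15 and 0.12. The kinase genes CHUK, IKBKE and IKBKG averaged 0.10, -0.06 and -0.09.

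TNFAIP3 and NFKBIA are induced by NF-kB itself, and on the p65 siRNA arrays they read -1.19, -1.34 and -0.59 and -0.995, -0.79 and -0.46. TNFAIP3 was thus higher with RPS3 siRNA than with p65 siRNA at each time, by 0.40 ± 0.34 (SD over 3 times; limma adjusted p = 0.737), and NFKBIA by 0.15 ± 0.11 (adjusted p = 0.841). Neither difference passed.

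Of 53 NF-kB target genes tested, 34 had a mean below 0 (median -0.08) and 8 a lower and 1 a higher mean with an unadjusted p under 0.05. CD83, a surface marker of activated cells, read -0.87, -0.54 and -0.59. Of its 9 probes with values on all arrays 7 averaged between -1.13 and -0.60 and were below 0 each time, whereas 25052_1 and 30249_1 averaged 0.08 and 0.03. The p65 siRNA values of CD83 were as low, at -0.64, -0.72 and -0.55. Lower too were FAS, the death receptor gene (-0.58, -0.24 and -0.69, with 4 similar probes), TNFRSF9, or 4-1BB (-0.61, -0.18 and -0.49), and IRF1 (-0.89, -0.57 and -0.14). MYC stood on the other side at 0.27, 0.65 and 0.24, and all 4 of its probes averaged above 0. Some cytokine genes lay near 0: IL2 read 0.14, -0.01 and 0.01, TNF -0.12, -0.11 and -0.09, and CXCL8 0.05, -0.18 and -0.14. Ratios hold no level, so whether these transcripts were present is not known. IFNG went from 0.36 at 1 h to -0.51 at 6 h.

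**Figure D3:**
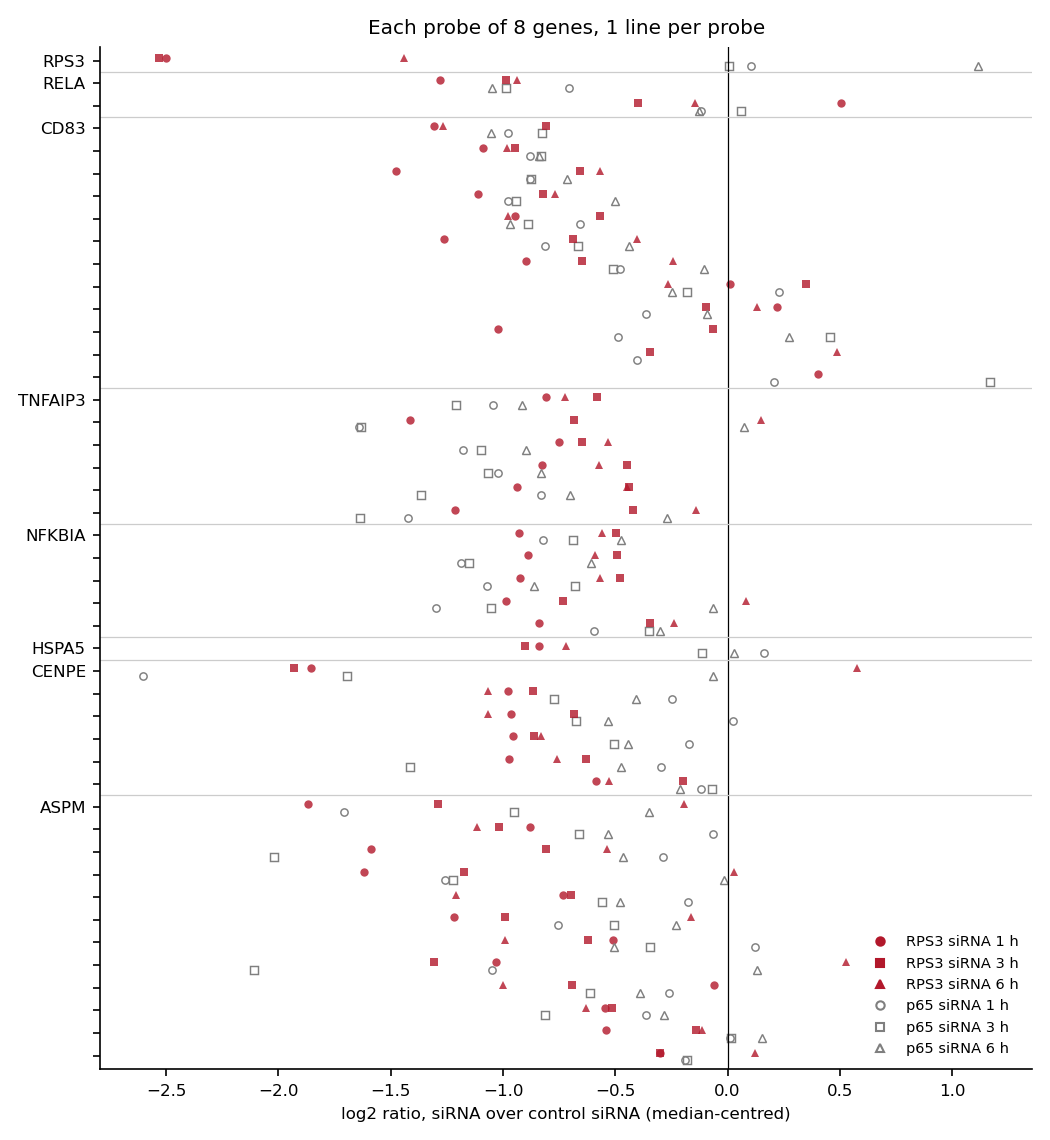
Log2 ratio of each probe of 8 genes, 1 line per probe, on the RPS3 siRNA arrays (filled) and the p65 siRNA arrays (open). The probes of TNFAIP3 and NFKBIA lie closer together at 3 h than at 6 h on the RPS3 siRNA arrays, while the pair for RELA and some probes of CD83, CENPE and ASPM disagree.

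Immediate-early genes, which a cell switches on within an hour of a signal, had 28 of 36 means below 0 and a median of -0.10; 7 were lower and 1 higher with an unadjusted p under 0.05. The lower ones were BHLHE40, SGK1 and ID1 from above, DUSP5, a phosphatase that turns off ERK (-0.71, -0.41 and -0.47), IER5 (-0.57, -0.28 and -0.35), BTG1, an antiproliferative factor (-0.22, -0.44 and -0.58), and MCL1, a survival protein of the BCL2 family (-0.18, -0.34 and -0.47). Genes of the AP-1 and EGR transcription factors had no common pattern. FOS read 0.59, -0.36 and -0.44, JUN 0.34, -0.23 and -0.44, and EGR1 0.44, -0.19 and -0.26, each above 0 at the earliest time only. JUNB (-0.28, 0.14 and -0.22), FOSL2 (-0.31, 0.02 and 0.05), EGR3 (0.22, 0.39 and -0.30) and JUND (0.17, -0.07 and 0.02) differed from that shape.

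Genes of the T cell receptor and its signalling had the opposite sign, with 29 of 43 means above 0 (background 53.2%) and 14 above 0 on all 3 arrays (background 16.2%). Those with an unadjusted p under 0.05 were RASGRP1, SLA, the adhesion receptor gene CD2 (0.48, 0.35 and 0.56) and the recombinase gene RAG1 (0.26, 0.38 and 0.51). RAG1 was as high on the p65 siRNA arrays, at 0.38, 0.54 and 0.52; CD2 was not, at 0.02, -0.09 and -0.17. Receptor chains lay closer to 0: CD3D read 0.29, 0.28 and 0.04, CD3E -0.27, 0.01 and 0.47, and CD3G -0.09, -0.04 and -0.05. The list's median was -0.02 at 1 h, 0.05 at 3 h and 0.19 at 6 h, and 26 of the 43 were highest at 6 h (39.8% of all features were), among them ZAP70 (0.01, 0.31 and 0.93) and LCK (-0.21, -0.04 and 0.74), kinases at the start of the pathway. Of the p65 siRNA arrays the 6 h array was likewise the highest for LCK (0.18, 0.15 and 0.72).

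Among genes of the unfolded protein response and of amino acid stress, 23 of 30 means were below 0 and the median was -0.12. The list joins genes that refold and clear proteins in the endoplasmic reticulum with genes that ATF4 induces when amino acids run short. HSPA5 led the list. XBP1, a transcription factor that induces chaperones after its mRNA is spliced by IRE1, read -0.51, -0.38 and -0.42, with p65 siRNA values of 0.10, -0.10 and 0.01. DNAJC3, a co-chaperone of BiP, read -0.76, -0.47 and -0.38 and was lower still with p65 siRNA at 3 h (-1.17). The folate enzyme gene MTHFD2 read -0.28, -0.20 and -0.63. MANF, a secreted partner of BiP, read -0.17, -0.29 and -0.22 and did not reach an unadjusted p of 0.05. Other folding genes varied: HSP90B1, for GRP94, read -1.34, -0.67 and 0.58 (mean -0.48), and the disulphide isomerase genes PDIA4 and PDIA3 read -0.25, -0.10 and -0.25 and 0.16, 0.09 and 0.37. CALR, for calreticulin, read -0.02, 0.06 and 0.93. Without the 6 h array the list had 9 members with an unadjusted p under 0.05, all lower, and without the 3 h array 2. Over all features 7.09% and 1.78% were lower by that measure in these fits. In the ATF4 branch, ATF4 itself read -0.34, 0.04 and 0.53, DDIT3, for CHOP, 0.08, 0.01 and 0.11, ASNS, for asparagine synthetase, 0.27, 0.07 and 0.33, and TRIB3 -0.03, -0.16 and 0.41.

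The HSPA5 promoter is known for its ER stress response elements, in which a CCAAT box and CCACG stand 9 bases apart, and is shown because HSPA5 is the lowest gene of this list. Its window lies at chr9:125241294-125241593, minus strand, and capitals mark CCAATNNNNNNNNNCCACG, beginning at base 185.
HSPA5: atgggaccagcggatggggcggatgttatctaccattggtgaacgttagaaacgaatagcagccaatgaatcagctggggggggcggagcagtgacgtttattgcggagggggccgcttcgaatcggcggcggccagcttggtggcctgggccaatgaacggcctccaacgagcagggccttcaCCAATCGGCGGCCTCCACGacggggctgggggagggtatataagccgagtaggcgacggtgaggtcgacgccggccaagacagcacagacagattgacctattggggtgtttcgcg
This spaced motif, searched on both strands and overlapping the CCAAT box by design, was in 4 of the 28 members with a window (14.3%), against 0.0806% of 27305 promoters. The 4 were HSPA5, HSP90B1, CRELD2 and CALR. Their means were -0.82, -0.48, -0.12 and 0.33, so promoters with the motif stood on both sides of 0. XBP1 and DNAJC3 had no match in this window.

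Ribosomal protein genes other than RPS3 did not share its low value. Of 13 small subunit genes tested, of 32 in the list, 10 means were below 0 (median -0.13), and of 11 large subunit genes 9 (median -0.09). Without the 6 h array 6 of the 13 small subunit means were below 0 and their median was 0.02. The lowest were RPS29 (-0.24, -0.13 and -0.92) and RPS25 (-0.25, -0.20 and -0.79), the latter with an unadjusted p under 0.05. RPS3A, RPS4X and RPS6 averaged -0.13, -0.01 and 0.01. Of the 24 genes of both subunits 16 were lowest at 6 h (38.7% of all features were), such as RPS20 (0.05, 0.07 and -0.65) and RPL5 (0.01, -0.07 and -0.55), though RPS2 (0.64) and RPL8 (0.79) were high then. On the p65 siRNA arrays the small subunit genes had medians of 0.35, 0.21 and 0.01.

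Ribosome assembly and nucleolar genes lay above 0 with 18 of 22 means (median 0.12). Their medians were 0.00 at 1 h, 0.16 at 3 h and 0.35 at 6 h, and 14 of the 22 were highest at 6 h (all features 39.8%). Without the 6 h array 9 of the 22 means were below 0, and 3 members were lower and 1 higher with an unadjusted p under 0.05. Of all 7869 features in that fit 3827 had a mean below 0, and 558 were lower (7.09%) and 351 higher by that measure. NOP56, a core protein of box C/D particles, read 0.02, 0.26 and 1.30, and NOP2, a methyltransferase of ribosomal RNA, 0.00, 0.18 and 0.93. On the p65 siRNA arrays 6 h was also the highest for NOP56 (0.41, -0.31 and 0.92) and NOP2 (-0.05, -0.35 and 0.47). The list's medians there were 0.12, -0.09 and 0.11. More even was PPAN (0.23, 0.49 and 0.30, limma unadjusted p = 0.0325). POLR1C, a subunit shared by RNA polymerases I and III, read 0.07, 0.41 and 0.89 (limma unadjusted p = 0.0426). With p65 siRNA POLR1C read 0.518, 0.17 and 0.435, so 6 h was not the highest there. Nucleolin (NCL) moved from -0.50 at 1 h to 1.17 at 6 h, and NPM1, or nucleophosmin, read 0.18, 0.30 and -0.03. Among 21 translation factors 16 means were above 0 (median 0.10), with EIF5 (0.26, 0.72 and 0.70) and EIF4H (0.33, 0.09 and 0.90) at an unadjusted p under 0.05.

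Among metabolic genes, all members with an unadjusted p under 0.05 were lower (background 4.07%). They were 3 of 32 in glycolysis and hypoxia, 1 of 18 in oxidative phosphorylation and 1 of 13 in cholesterol and fatty acid synthesis. Of 32 genes of glycolysis and hypoxia 23 had a mean below 0 (median -0.06), among them GBE1, the glycogen branching enzyme (-0.42, -0.45 and -0.80), ALDOC, an aldolase (-0.90, -0.47 and -0.13), and BNIP3L, a mitophagy receptor (-0.17, -0.69 and -0.60). Oxidative phosphorylation had 10 of 18 below 0 and UQCRB (-0.13, -0.35 and -0.77), and cholesterol and fatty acid synthesis had 8 of 13 and STARD4, a sterol carrier (-0.30, -0.26 and -0.32). Apoptosis regulators were split, with 18 of 34 below 0; TNFSF10, the ligand TRAIL (-0.92, -0.47 and -0.24), was the lowest and DFFA, the inhibitor of a DNA-cutting nuclease (0.28, 0.19 and 0.63), was above 0 each time. Among 19 p53 target genes 9 were below 0, with FAS the one at an unadjusted p under 0.05. Of 30 interferon-stimulated genes 13 were below 0, including IRF1, IFIT1 (-0.14, -0.35 and -1.03) and IFI6 (-0.42, -0.22 and -0.32). Another IFIT1 probe, blank at 1 h and so not used, disagreed, at 0.23 at 3 h and -0.09 at 6 h. Heat shock proteins had 5 of 11 below 0, with BAG3 at -0.37, -0.24 and -0.31, T cell cytokines and activation markers 14 of 27, the proteasome 3 of 10, and the RNA interference machinery 3 of 7.

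**Figure D4:**
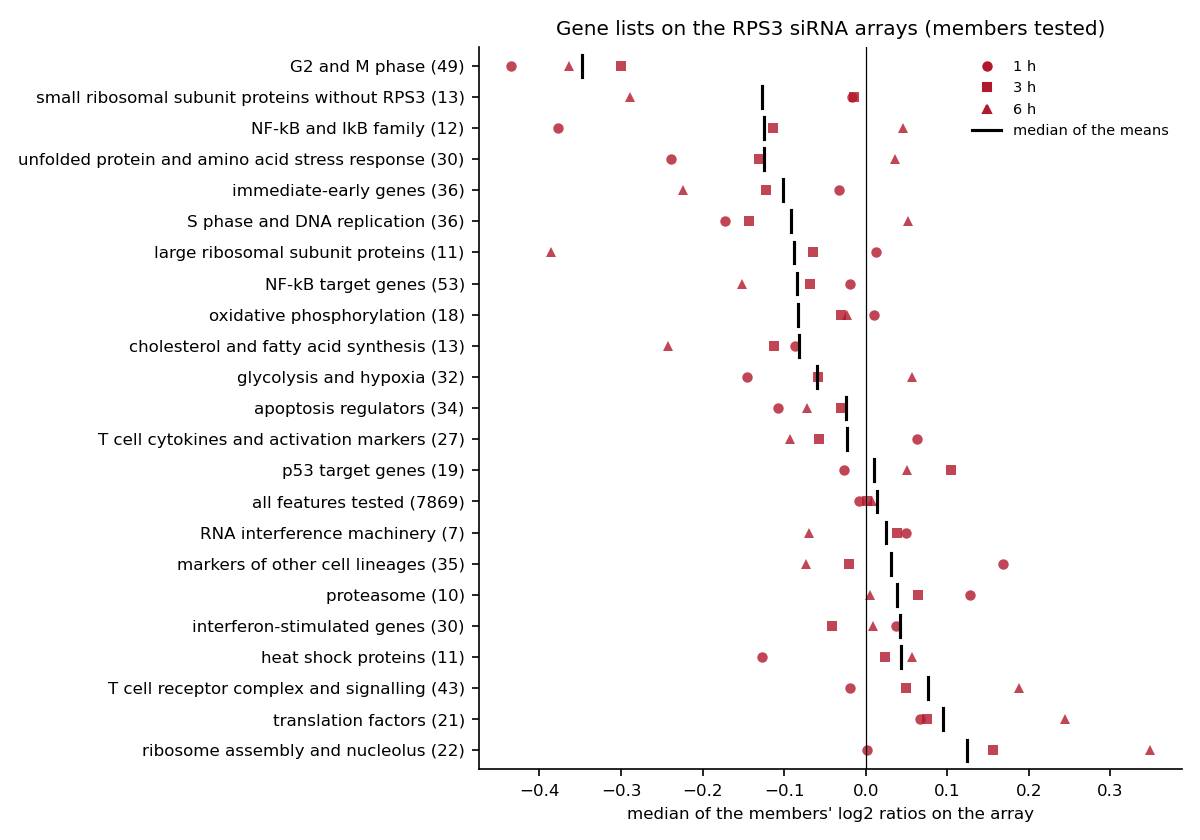
Median log2 ratio of each gene list with RPS3 siRNA after 1, 3 or 6 h (symbols) and median of the members' means (bars), with the number of members tested; all features tested stand near 0. Only the G2 and M phase list is below -0.2 at every time, and ribosome assembly runs from 0.00 at 1 h to 0.35 at 6 h.

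Markers of cell lineages other than T cells were examined on the same arrays. Of 35 tested, 15 means were below 0, and the median ran from 0.17 at 1 h to -0.02 at 3 h and -0.07 at 6 h. Those with an unadjusted p under 0.05 were CTSG, a granule protease of myeloid cells (-0.55, -0.58 and -0.45; p65 siRNA values 0.31, 0.12 and 0.28), SPI1, the myeloid transcription factor PU.1, whose 5 probes averaged from -1.09 to -0.05, and OGN. Ratios hold no level, so they do not show whether these transcripts, or those of the T cell markers, were present.

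Some genes had a clear order over time with RPS3 siRNA. Of 2142 genes with at least 2 complete probes, all probes went up from 1 to 3 to 6 h in 177 and down in 78. The largest increases from 1 to 6 h were those of CCR4, a chemokine receptor (-1.15, -0.38 and 1.15), WSB1 (-1.17, -0.30 and 1.04), HSP90B1 (-1.34, -0.67 and 0.58), ANKRD12 (-0.66, -0.18 and 1.08) and CD2AP, an adaptor that binds CD2 (-1.26, -0.20 and 0.36). The largest decreases were those of SAMD12 (1.12, -0.02 and -0.27), CYP3A7, a fetal liver cytochrome (0.49, 0.05 and -0.58), GPR183, an oxysterol receptor (-0.15, -0.43 and -1.09), IL1B (0.68, 0.01 and -0.24) and ZNF148 (0.55, 0.23 and -0.35). They were chosen for this order, which has no replicate and no test. On the p65 siRNA arrays the first 5 were lowest at 3 h and higher at 6 h than at 1 h, as in CCR4 at -0.88, -1.64 and 0.41. GPR183 went down there as well, at 0.04, -0.26 and -0.66, and so did CYP3A7, at 0.21, -0.01 and -0.21.

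**Figure D5:**
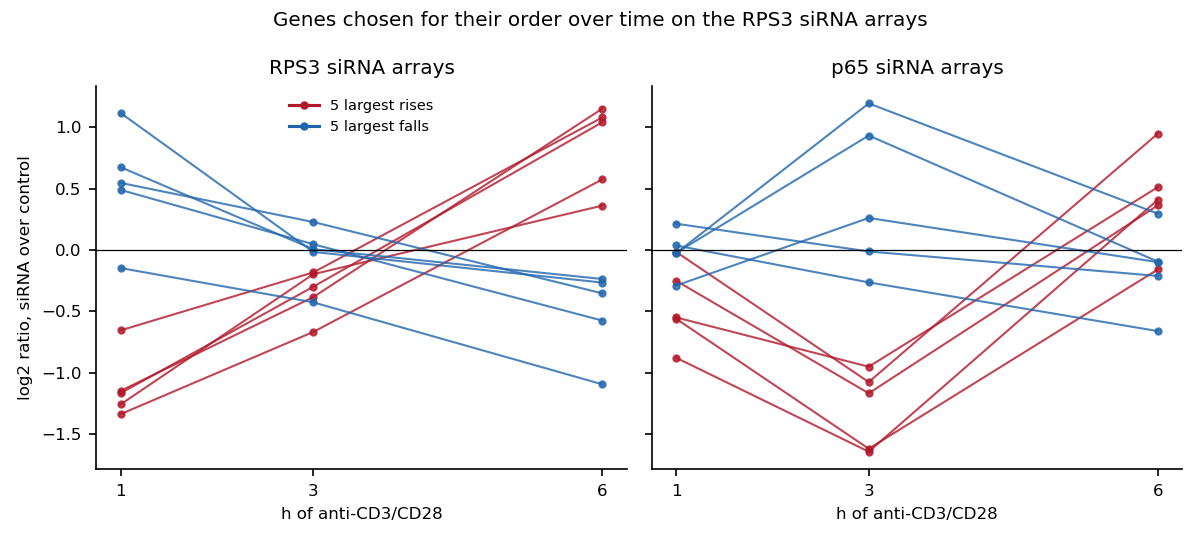
Log2 ratios over h of stimulation for the 10 genes chosen for the largest ordered change on the RPS3 siRNA arrays (left), and the same genes on the p65 siRNA arrays (right); each point is 1 array. The genes that increase with RPS3 siRNA dip at 3 h with p65 siRNA, CCR4 to -1.64.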

How the data were processed

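RNA of Jurkat cells was compared on 2-colour spotted arrays. Per the labels, RNA was extracted with Trizol and reverse transcribed from oligo-dT primers, and the siRNA sample was labelled with Cy5 and the control with Cy3. The values deposited by the authors are log ratios of both channels per probe, read here as log2. Scanner software, background correction, normalization, log base and the rule behind blank cells are not given in the sources used here. Medians as deposited lay between -0.0185 and 0.007 on the 3 arrays. Blanks made up 9.04% of the 1 h array, 7.20% of the 3 h array and 15.1% of the 6 h array. No signal over background is known, and precision is limited by having 3 arrays.

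Of 15246 probes, 10169 had 1 gene symbol in the platform annotation (4604 symbols), 4 several and 5073 none; 10128 matched a current gene record. Each array was centred on its median. Of 4073 genes tested 2142 had 2 or more complete probes, and in 1224 of these all probe means had 1 sign. Means were tested against 0 by limma's lmFit and eBayes (version 3.58.1, R 4.3.3; Benjamini-Hochberg over all features; threshold 0.05), with the 3 times as replicates. Such a test ignores the spread of the control RNA itself, and any dye effect remains in the ratio. The difference from the p65 siRNA arrays was fitted over all 6 arrays with the time point as a block. Calculations were tested on simulated data.

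The members and the 22 gene lists were chosen with earlier results of these data known, and the lists carry no test. Named were RPS3 and RELA, the 12 highest and 12 lowest gene means with 1 sign and an unadjusted p under 0.05, up to 4 such members of each list and direction, and 5 genes for each order over time; other members are named as part of their group and were chosen with their values seen, and so was the grouping of the G2 and M list by role. One gene that the rule names is not reported here. Promoter windows are from RefSeq. Alternatives changed the arrays fitted, time block, ID series, centring, scale, variance prior, blanks, probe summary and each left-out array.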

Additional observations from a re-analysis of the deposited data

Results flagged for a closer look

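The effect of the RPS3 siRNA differed from that of the p65 siRNA, over the same times, for 2 of 7189 features. The RPS3 probe differed by -2.57 (limma, adjusted p = 0.00392) and was lower with RPS3 siRNA at all 3 times. The unnamed probe 35578_1 differed by -2.39 (adjusted p = 0.0226), also at all 3 times. Neither passed when the time point was left out of the fit, which called 0 features. Without the RPS3 siRNA 1 h array, or without the p65 siRNA 1 h array, 131 features passed. Arrays were too few in a group for a check of single outlying samples.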

How the results depend on the processing

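Against 0 calls among genes and unnamed probes, the alternatives gave 3 in the fit blocked by time (RPS3, 35578_1 and 35542_1), 2 with quantile normalization, and 0 to 2 when 1 RPS3 siRNA array was left out. Single probes gave 7 calls with all 6 arrays in the fit, 7 with the time block, 2 with quantile normalization and 0 to 8 with 1 array left out. Features with an unadjusted p under 0.05 went from 588 to 1204 with the time block, and from 341 without the 3 h array to 909 without the 6 h array. RPS3 kept its direction and passed with the time block (mean -2.16, adjusted p = 0.00132), with quantile normalization (-2.11, adjusted p = 0.0348) and in part of the fits with 1 array left out (means -2.52 to -1.97). The difference between the siRNAs gave 0 calls without the time block, and 2 to 131 with 1 array left out. The cause was not tested.

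Of 756 values of named genes under the alternatives, 752 kept direction and side of the threshold, 4 passed (all of RPS3) and 0 changed sign. Each of these genes had 1 sign on all 3 arrays, so leaving out an array could not change the sign of its mean. Genes named only as part of a group or for their order over time were not among them. The median of the p53 target genes ran from -0.0589 (3 h array left out) to 0.0281, and that of the heat shock proteins from -0.0817 (6 h array left out) to 0.0523. With 1 array left out the median also changed sign for the small ribosomal subunit (0.0187 without 6 h), T cell cytokines (0.0078 without 3 h and 0.0311 without 6 h), markers of other lineages (-0.0646 without 1 h) and RNA interference (-0.036 without 3 h). Gene means that 1 array moved by over 1.5 times were those of CCDC191 (0.59 to 1.72), SLC71A3P (0.29 to 1.08), ACAP1 (0.23 to 0.77), TTC17 (0.34 to 1.07), EIF4H (0.21 to 0.62), IFIT1 (-0.69 to -0.24), SLA (0.33 to 0.89), POLR1C (0.24 to 0.65), RPS25 (-0.52 to -0.22), GPCPD1 (0.42 to 1.01), UQCRB (-0.56 to -0.24), ALDOC (-0.68 to -0.30), PGGHG (0.42 to 0.87), DFFA (0.24 to 0.45), MTHFD2 (-0.45 to -0.24), TNFSF10 (-0.70 to -0.36), MYC (0.26 to 0.46) and HLF (0.44 to 0.83).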
